A study of Homo sapiens with 4 samples.

Results

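The G2 and mitosis genes are 57 genes that cells need to enter mitosis, separate their chromosomes and divide. They were chosen by name from a list of mitotic kinases, cyclins, kinetochore, spindle and cytokinesis genes. The rule held no measured value, but earlier results of these data were known when the genes were chosen. All 57 were found among the 58243 genes of the deposited tables. RNA was sequenced from SH-SY5Y, an established line of human neuroblastoma cells from ATCC, after exposure to sodium nitroprusside (SNP), a nitric oxide donor whose treatment the labels call oxidizing. There were 2 libraries of untreated cells (control a and b) and 2 of SNP-treated cells (SNP a and b). The cells settled for 24 h before treatment, which lasted 8 h. The labels speak of cells differentiated with retinoic acid and of several SNP doses, without giving the dose of the sequenced cells. They do not say whether a and b are separate cultures, so p-values measure only the spread between these libraries, which may be technical.

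Entry into mitosis is driven by the kinase CDK1 bound to cyclin B, which CDC25 phosphatases switch on and which the kinases PLK1, Aurora A and Aurora B act beside. Exit is driven by the anaphase-promoting complex, a ubiquitin ligase that marks cyclin B and securin for destruction once the spindle checkpoint is satisfied. The genes of this programme are switched on together late in the cycle by the MuvB proteins with B-Myb (MYBL2) and FOXM1. They are held down by the DREAM complex, which the CDK inhibitor p21 (CDKN1A) engages. DREAM and MuvB contact a short promoter element called the cell cycle genes homology region (CHR), often near CCAAT boxes that bind NF-Y.

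The promoters of genes that fell, of genes that rose and of TOP2A, which did not pass the test, are shown because the CHR is where this control is known to act. Each window is from RefSeq (GRCh38.p14), runs from 250 bases before to 50 bases after the start site, and is written 5′ to 3′ on the gene's strand. Capitals mark the CHR letters TTTGAA or TTCGAA and the CCAAT box, on either strand, so that TTCAAA and ATTGG are the same motifs read from the other strand. The windows are chr1:43358731-43359030 (CDC20, plus strand), chr5:69166900-69167199 (CCNB1, plus), chr15:59104896-59105195 (CCNB2, plus), chr16:23678639-23678938 (PLK1, plus), chr17:40417847-40418146 (TOP2A, minus), chr1:214602945-214603244 (CENPF, plus) and chr10:89701340-89701639 (KIF20B, plus).
CDC20: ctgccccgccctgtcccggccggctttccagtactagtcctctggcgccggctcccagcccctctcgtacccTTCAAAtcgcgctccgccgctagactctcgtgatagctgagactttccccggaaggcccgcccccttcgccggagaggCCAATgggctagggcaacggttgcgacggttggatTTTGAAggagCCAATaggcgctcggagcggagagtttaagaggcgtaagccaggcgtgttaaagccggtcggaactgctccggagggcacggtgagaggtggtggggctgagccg
CCNB1: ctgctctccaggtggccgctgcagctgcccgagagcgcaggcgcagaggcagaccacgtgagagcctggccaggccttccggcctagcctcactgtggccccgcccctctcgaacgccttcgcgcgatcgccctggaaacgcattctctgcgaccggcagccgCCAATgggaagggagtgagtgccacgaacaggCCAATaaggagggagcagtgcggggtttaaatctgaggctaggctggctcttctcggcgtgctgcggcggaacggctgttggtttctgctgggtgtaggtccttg
CCNB2: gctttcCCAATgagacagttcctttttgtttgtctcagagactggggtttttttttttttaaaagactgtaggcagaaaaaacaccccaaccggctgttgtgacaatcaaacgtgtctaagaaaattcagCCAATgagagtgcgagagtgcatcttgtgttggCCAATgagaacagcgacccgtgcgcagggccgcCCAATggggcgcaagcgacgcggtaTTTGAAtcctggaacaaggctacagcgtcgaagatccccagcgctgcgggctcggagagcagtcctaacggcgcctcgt
PLK1: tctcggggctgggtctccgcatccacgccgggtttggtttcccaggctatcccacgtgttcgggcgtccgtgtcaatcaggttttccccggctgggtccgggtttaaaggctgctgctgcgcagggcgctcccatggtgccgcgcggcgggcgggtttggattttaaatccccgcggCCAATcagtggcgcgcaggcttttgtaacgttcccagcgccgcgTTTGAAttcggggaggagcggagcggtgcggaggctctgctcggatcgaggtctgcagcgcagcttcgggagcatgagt
TOP2A: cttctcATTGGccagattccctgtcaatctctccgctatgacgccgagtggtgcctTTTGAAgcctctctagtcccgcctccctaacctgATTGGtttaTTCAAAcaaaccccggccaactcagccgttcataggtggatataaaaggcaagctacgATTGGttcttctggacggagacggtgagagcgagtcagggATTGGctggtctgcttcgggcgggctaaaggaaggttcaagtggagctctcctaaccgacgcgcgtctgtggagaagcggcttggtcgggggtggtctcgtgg
CENPF: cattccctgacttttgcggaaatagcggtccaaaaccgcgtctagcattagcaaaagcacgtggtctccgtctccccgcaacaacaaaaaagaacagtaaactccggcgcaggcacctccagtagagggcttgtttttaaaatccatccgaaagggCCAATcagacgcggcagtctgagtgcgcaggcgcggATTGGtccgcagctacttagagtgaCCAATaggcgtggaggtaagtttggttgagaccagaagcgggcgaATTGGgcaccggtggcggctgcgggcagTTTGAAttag
KIF20B: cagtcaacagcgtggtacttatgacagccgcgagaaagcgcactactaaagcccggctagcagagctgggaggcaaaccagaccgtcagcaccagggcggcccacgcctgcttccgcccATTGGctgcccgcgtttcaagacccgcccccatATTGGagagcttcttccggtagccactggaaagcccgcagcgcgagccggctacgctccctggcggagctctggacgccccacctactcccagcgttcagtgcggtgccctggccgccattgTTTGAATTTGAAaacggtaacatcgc
CCNB2 and PLK1 both held a CHR from position -29 to -24, counted from the start site. CCNB2 had 4 CCAAT boxes upstream of it and PLK1 had 1. CDC20 held a CHR at -65 to -60 and another at -178 to -173. CCNB1 held 2 CCAAT boxes, and the CHR letters were not in its window. In CENPF and KIF20B the CHR letters lay downstream of the start site, at 40 to 45 in CENPF and at 24 to 29 and 30 to 35 in KIF20B. BUB1 (1 to 6) and NUSAP1 (13 to 18), called lower after SNP, also held a downstream CHR, as did NUF2 (16 to 21), called higher. Among genes that did not pass, ECT2 (34 to 39), DLGAP5 (3 to 8), CKAP5 (17 to 22) and NDC80 (3 to 8) held one downstream. SMC4, called higher, held its CHR at -75 to -70.

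RefSeq windows matched 48 of the 57 symbols. Only the first window of each symbol was searched, and 12 further windows of these genes were left out. Tested genes were handled the same way, but the set of all windows was not. The list was drawn up as genes held down through p21 and DREAM, which acts at the CHR. High shares of these motifs are therefore partly built into the choice of genes. The CHR letters were in 33 of these 48 (68.8%), against 16.4% of all 35116 windows and 11.0% of the 10416 windows of tested genes. At least 1 CCAAT box was in 35 of 48 (72.9%), against 34.6% of all windows and 36.9% of those of tested genes. A CHR together with at least 2 CCAAT boxes was in 20 of 48 (41.7%), against 1.91% of all windows and 1.62% of those of tested genes. The CHR letters were in 15 of the 23 matched genes that were called lower after SNP (65.2%) and in 18 of the 25 that were not (72.0%). A base could belong to matches of both motifs, and a match is a description of the letters, not of binding.

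**Figure D1:**
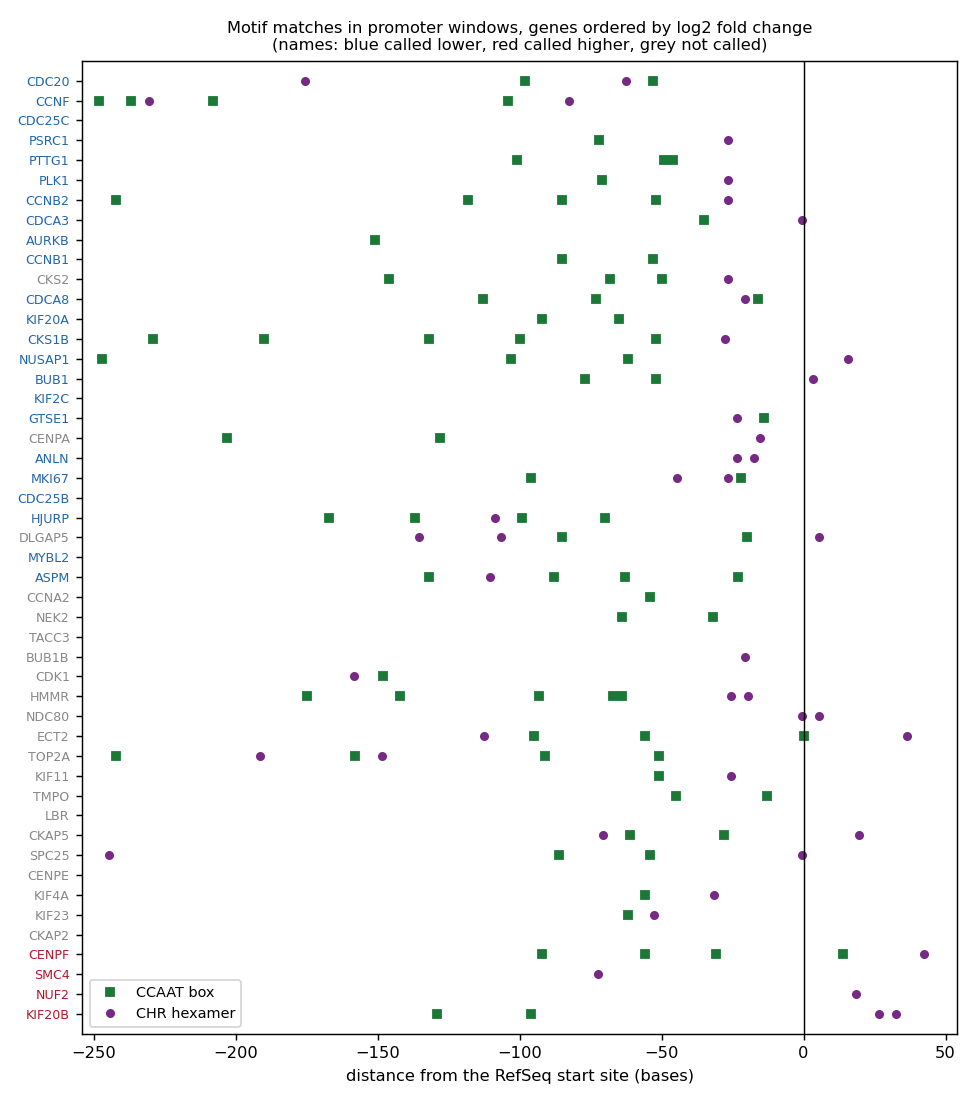
Positions of CHR and CCAAT matches (horizontal axis, bases from the RefSeq start site) in the 48 matched promoter windows, with genes ordered from the largest fall to the largest rise after SNP. Matches are present at both ends of the order: the CHR letters are in 15 of 23 genes called lower and 18 of 25 others.

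The libraries held 5613144 to 8056550 counts, and 3 counts, the limit that a count of 0 allows, came to 0.372 to 0.534 CPM (counts scaled to library size). Of 14759 genes tested, 1859 were called lower and 2002 higher after SNP; with read totals implied by the RPKM values the split was 1218 and 2085. The adrenergic neuroblastoma markers were present: 14 of 15 were tested, TH was listed at 0 in every library, and their summed level was 4513 to 4641 CPM in control and 3585 to 3767 CPM after SNP, with 8 called lower and 3 higher (4 and 3 with the length and base composition of transcripts modelled). Of 12 mesenchymal markers 9 were tested, with 1 called lower and 2 higher, and their sum was 625 to 662 CPM in control and 566 to 568 CPM after SNP. The part of these shifts in the results was not tested. Glial markers summed to 13 to 25 counts a library, with MBP, AQP4 and OLIG2 at 0, and immune markers to 12 to 24 counts, with PTPRC and CD3E at 0.

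After SNP, 29 of the 57 G2 and mitosis genes fell and 4 rose, and 24 did not pass the test (quasi-likelihood test of edgeR, p adjusted by Benjamini-Hochberg across every tested gene, threshold 0.05). Over all genes 12.6% were called lower and 13.6% higher. All 57 passed the filter on low counts, and 53 had at least 50 counts in every library. Their median log2 fold change was -0.42, with a range from -1.27 to 0.53, against a median of -0.0042 over all genes tested. In 36 genes both SNP libraries lay below both control libraries, where 32.3% of all genes did, and in 5 both lay above, where 31.7% did. Summed over the 57 genes, the level was 7570 ± 640 CPM in control and 6647 ± 471 CPM after SNP (SD, n = 2). Fewer dividing cells and less of these RNAs per cell cannot be told apart in bulk RNA.

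**Figure D2:**
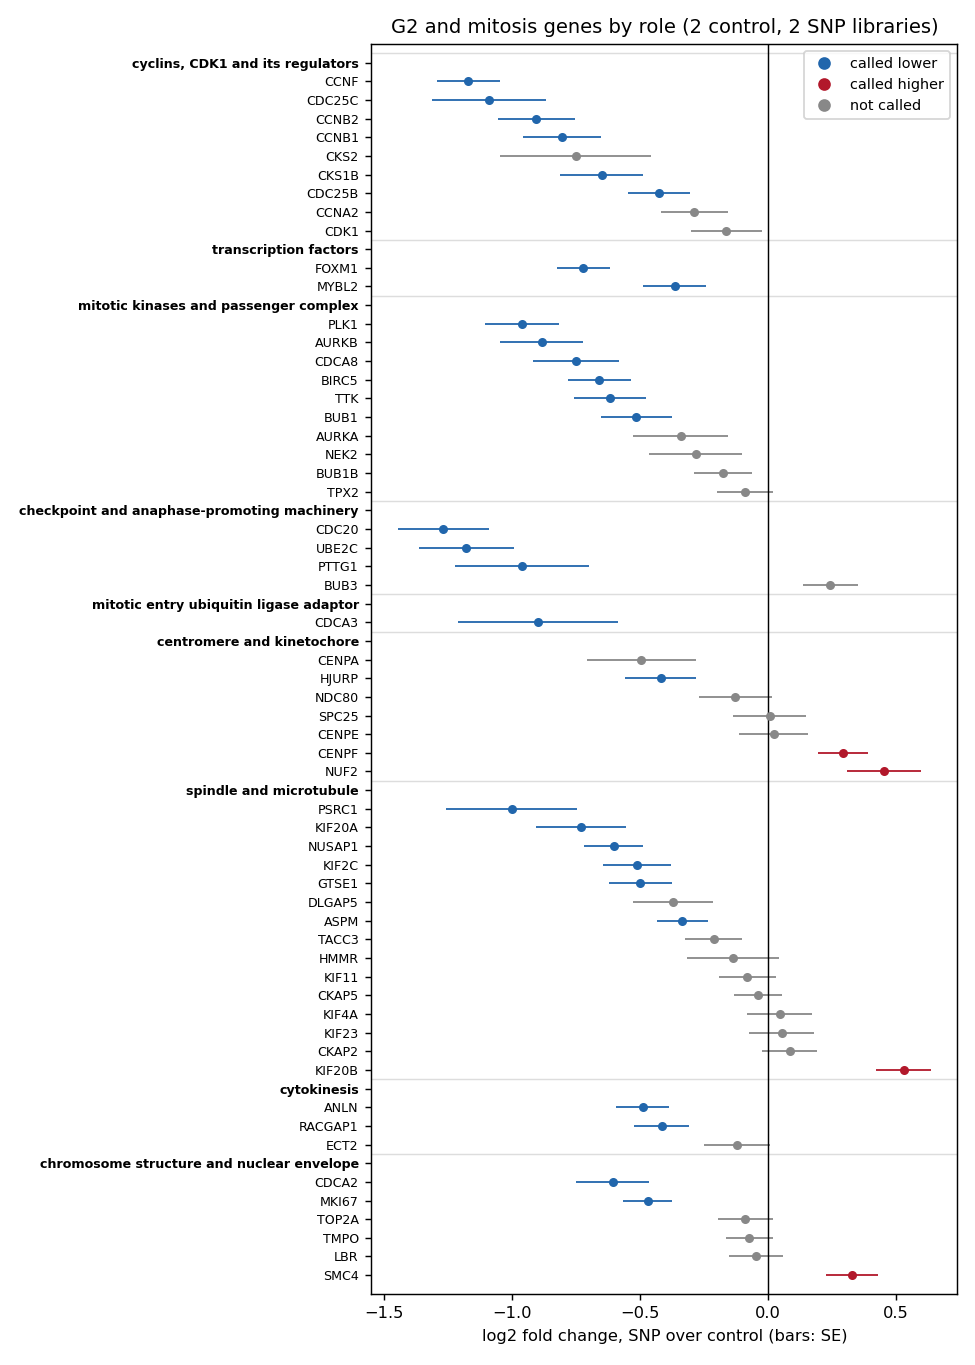
Log2 fold change of each of the 57 genes, SNP over control (points, with bars for the SE), grouped by role and coloured by the call. Cyclins, kinases and CDC20, UBE2C and PTTG1 lie mostly left of 0, whereas the centromere and kinetochore genes lie on both sides, around a median of 0.0058 (-0.26 with base composition modelled).

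Control a weighed on these counts. Without it 16 genes were called lower (7.98% of all genes), and 13 lost their call: ANLN, ASPM, BUB1, CDC25B, CDCA2, CDCA3, GTSE1, HJURP, KIF20A, KIF2C, PSRC1, RACGAP1 and TTK. Their log2 fold changes without it were -0.75 to -0.18. The count of genes called higher went from 4 to 1 without control b (8.28% of all genes) and to 1 without SNP a (10.4% of all genes). With read totals implied by RPKM the calls of ASPM, CDC25B, HJURP, MKI67, MYBL2, RACGAP1, CENPF and SMC4 were lost (adjusted p = 0.056 to 0.23), and with DESeq2 those of CDCA3, HJURP, MYBL2 and NUF2 (adjusted p = 0.071 to 0.16). The libraries of each pair also differed: the median log2 ratio of b over a was -0.15 in control, with 48 of 57 genes below 0, and -0.16 in SNP, with 45 below 0. Over all genes these medians were 0.0015 and -0.00023. Of the 4 control and SNP combinations, SNP a over control b had the median nearest 0, at -0.22, with 36 of 57 genes below 0, and SNP b over control a the lowest, at -0.55, with 52 below 0. The part of the difference between a and b in the results was not tested.

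The change of these genes moved with the base composition of their transcripts. Across the 57 genes, Spearman's rho of the log2 fold change was 0.59 with guanine minus cytosine content and -0.64 with GC content; over 14724 genes tested it was 0.48 and -0.20. It was also 0.63 with mean CPM and 0.50 with exon length, against 0.020 and 0.092 over all genes tested. These are descriptions across genes that share libraries. The median guanine minus cytosine content was 0.28 percentage points in genes called lower, 2.49 in those not called and 3.90 in those called higher. When all genes were split into 10 equal groups by that content, 52 of the 57 lay below the median change of their group. With length, GC and guanine minus cytosine content modelled in each library, 37 genes were called lower (8.71% of all genes) and 1, BUB3, higher (10.0% of all genes), and the median log2 fold change was -0.43. Of the 29 genes called lower, 25 kept the call and CDC25B, CDCA3, GTSE1 and MYBL2 lost it (adjusted p = 0.081 to 0.49), and 12 more were called, among them CDK1 (-0.45, adjusted p = 0.011), TOP2A (-0.38, adjusted p = 0.0045), CCNA2 (-0.39, adjusted p = 0.017), BUB1B (-0.46, adjusted p = 0.0025) and DLGAP5 (-0.64, adjusted p = 0.0054). Of the 4 genes called higher none kept the call, and CENPF was called lower. With length and GC alone 1, KIF20B, kept it, while CENPF (0.18), SMC4 (0.17) and NUF2 (0.31) were not called and stayed above 0. Elsewhere, base composition modelled refers to the fit with guanine minus cytosine content. The part of base composition in the results was not tested further.

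**Figure D3:**
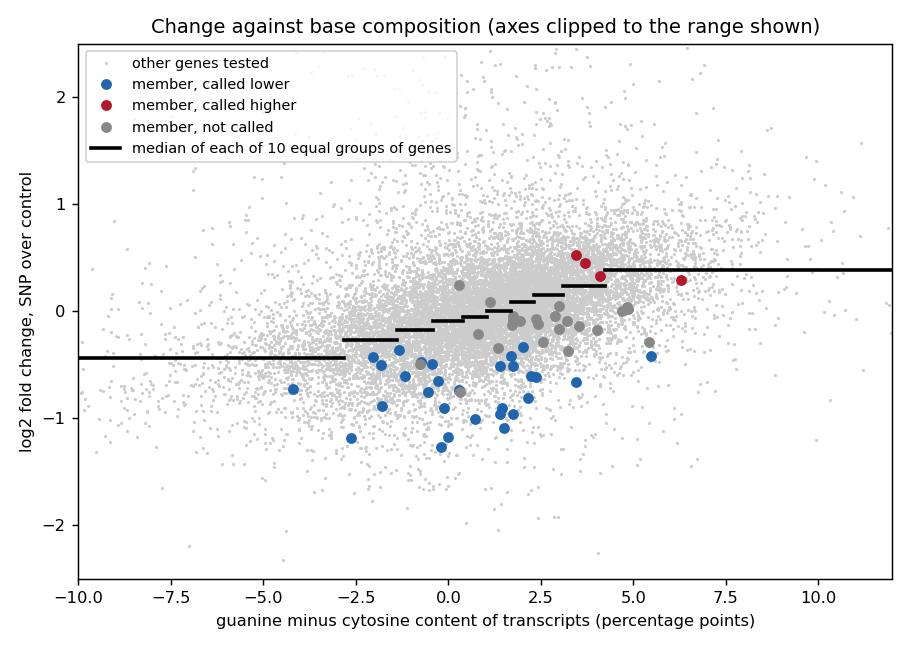
Log2 fold change, SNP over control, against guanine minus cytosine content of the transcripts in percentage points, for the 57 genes (coloured by call) and the other genes tested (grey), with black bars for the median of each of 10 equal groups. The medians climb from left to right, and 52 of the 57 genes lie below the bar of their group.

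Of CDK1, its cyclins and their regulators, 6 of 9 fell and none rose, with a median log2 fold change of -0.75. CDK1 itself did not pass the test. CDK1 stood at 55.8 and 53.1 CPM in control a and b and at 55.0 and 42.3 CPM in SNP a and b. The groups overlapped, since SNP a lay between the controls, and the log2 fold change was -0.16 (SE 0.139, adjusted p = 0.42, edgeR), or 0.017 without SNP b; with base composition modelled CDK1 was called lower (-0.45, adjusted p = 0.011). Its partner cyclin B1 (CCNB1) was at 66.3 and 53.4 CPM in control and 39.3 and 29.3 CPM after SNP. Both SNP libraries lay below both controls (log2 fold change -0.81, SE 0.153, adjusted p = 5.3e-04, edgeR). Cyclin B2 (CCNB2) showed the same order, with 52.3 and 44.9 CPM in control and 28.2 and 23.7 CPM after SNP (log2 fold change -0.91, SE 0.151, adjusted p = 1.6e-04, edgeR).

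Cyclin F (CCNF), a substrate receptor of the SCF ubiquitin ligase, had the lowest adjusted p of the 57 genes. It was at 93.3 and 101 CPM in control and 39.8 and 46.4 CPM after SNP, and the groups were far apart (log2 fold change -1.17, SE 0.123, adjusted p = 1.1e-06, edgeR). CDC25C, a phosphatase that activates CDK1, was at 20.2 and 15.6 CPM in control and 8.69 and 8.17 CPM after SNP. Its groups did not overlap (log2 fold change -1.09, SE 0.222, adjusted p = 0.001, edgeR), and it shares exonic bases with FAM53C. CDC25B fell less (log2 fold change -0.43, adjusted p = 0.013, edgeR), a call lost without control a (adjusted p = 0.065), control b (0.12) or SNP a (0.067). Of the small CDK-binding proteins, CKS1B fell (log2 fold change -0.65, adjusted p = 0.0054, edgeR). CKS2, counted at 4.41 to 12.3 CPM, was at -0.75 (adjusted p = 0.063, edgeR). It was called lower in some settings, such as limma-voom (adjusted p = 0.046), and not with base composition modelled (-0.46, adjusted p = 0.31, edgeR). Across the settings run its log2 fold change was -1.34 to -0.34. Cyclin A2 (CCNA2) was at -0.29 (adjusted p = 0.11), and was called lower without SNP a (0.014) and with base composition modelled (0.017).

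Both transcription factors of the programme were called lower. With base composition modelled FOXM1 was at -0.33 (adjusted p = 0.0096, edgeR), and MYBL2, at -0.10 (adjusted p = 0.49, edgeR), was not called. FOXM1 was at 182 and 196 CPM in control and 109 and 120 CPM after SNP. The groups were apart by more than the spread within either (log2 fold change -0.72, SE 0.104, adjusted p = 4.0e-05, edgeR). MYBL2 was at 190 and 206 CPM in control and 128 and 179 CPM after SNP. SNP b lay close to the controls, and the smaller change (log2 fold change -0.37, SE 0.124, adjusted p = 0.034, edgeR) was not called without SNP a (-0.14, adjusted p = 0.40) or without control b (-0.31, adjusted p = 0.16).

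Of the mitotic kinases and their partners 6 of 10 fell and none rose, with a median log2 fold change of -0.57. PLK1, which acts at mitotic entry, on centrosomes and in cytokinesis, was at 51.4 and 47.6 CPM in control and 26.4 and 24.4 CPM after SNP. The SNP libraries were tightly placed and well below both controls (log2 fold change -0.96, SE 0.144, adjusted p = 5.6e-05, edgeR). All 3 measured members of the chromosomal passenger complex in the list fell: Aurora B (AURKB) by 0.88, borealin (CDCA8) by 0.75 and survivin (BIRC5) by 0.66 on the log2 scale, with adjusted p of 4.2e-04, 0.0022 and 4.7e-04 (edgeR). INCENP, the scaffold of that complex and outside the list, rose, from 82.5 and 70.3 CPM to 101 and 105 CPM (log2 fold change 0.42, adjusted p = 0.0093, edgeR), a call lost without control b (adjusted p = 0.21). The checkpoint kinases TTK (log2 fold change -0.62, adjusted p = 0.0024) and BUB1 (-0.51, adjusted p = 0.0088) fell. Neither passed without control a (adjusted p = 0.10 and 0.23), nor did BUB1 without SNP b (0.066). Aurora A (AURKA), at 26.5 and 22.2 CPM in control and 22.0 and 16.5 CPM after SNP, did not pass (log2 fold change -0.34, adjusted p = 0.19), and its activator TPX2 was at -0.09 (adjusted p = 0.59).

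Of 4 checkpoint and anaphase genes in the list 3 were called lower, among them CDC20 (ENSG00000117399, GRCh38 chr1:43358955-43363203) and UBE2C (ENSG00000175063, chr20:45812576-45816957). CDC20, which activates the anaphase-promoting complex, was at 30.4 and 30.0 CPM in control and 12.5 and 12.6 CPM after SNP. The replicates were almost equal and the SNP level was 41.5% of control (log2 fold change -1.27, SE 0.177, adjusted p = 2.7e-05, edgeR). UBE2C, the ubiquitin-conjugating enzyme of that complex, was at 27.0 and 26.3 CPM in control and 12.5 and 11.0 CPM after SNP, again with no overlap (log2 fold change -1.18, SE 0.185, adjusted p = 8.4e-05, edgeR), or -0.70 with base composition modelled. Securin (PTTG1), which holds separase inactive, was at 12.6 and 15.8 CPM in control and 9.06 and 5.45 CPM after SNP. The groups did not overlap (log2 fold change -0.96, SE 0.262, adjusted p = 0.0094, edgeR), but the call was lost without SNP b (adjusted p = 0.070) or control b (0.062). BUB3, a spindle checkpoint protein that binds kinetochores, was above control in both SNP libraries without passing the test (log2 fold change 0.24, adjusted p = 0.099). CDCA3, a ubiquitin ligase adaptor of mitotic entry, fell at 29 to 59 counts a library (log2 fold change -0.90, adjusted p = 0.038, edgeR), a call lost without control a (0.25) or SNP a (0.20).

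**Figure D4:**
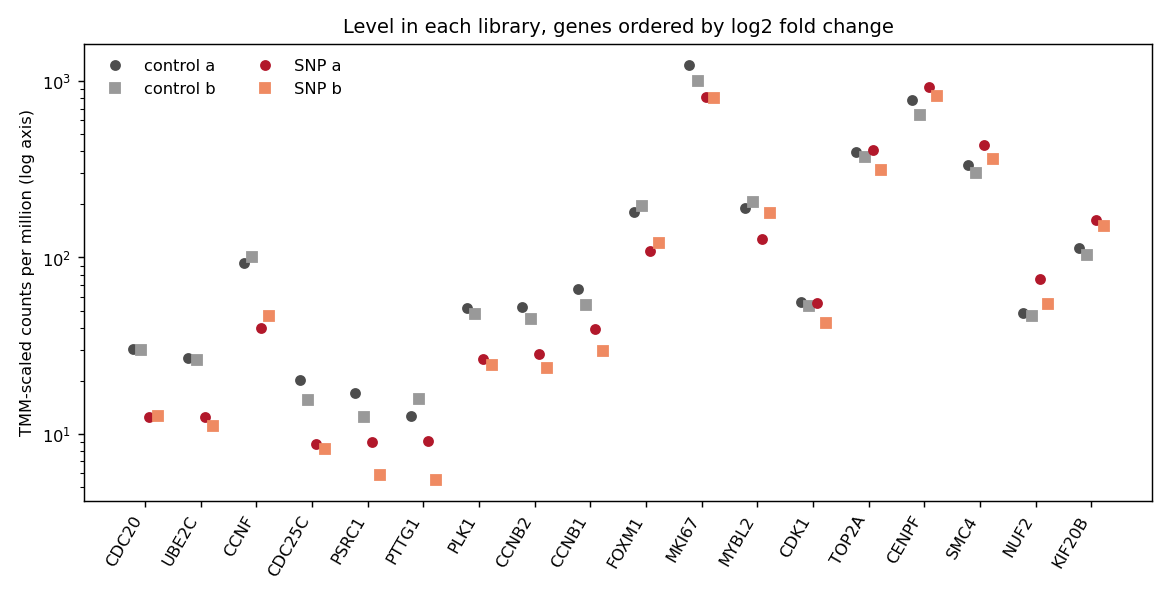
TMM-scaled CPM (log axis) of 18 genes in each of the 4 libraries, ordered from the largest fall, CDC20, to the largest rise, KIF20B. Control and SNP points are apart for the genes at either end (CENPF and SMC4 turn below 0 with base composition modelled), and overlap for CDK1 and TOP2A.

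The 7 centromere and kinetochore genes did not move together: 1 fell and 2 rose, with a median of 0.0058; with base composition modelled 3 were called lower and 0 higher, with a median of -0.26. CENPF, a large kinetochore protein, was at 780 and 646 CPM in control and 923 and 824 CPM after SNP. Both SNP libraries lay above both controls (log2 fold change 0.29, SE 0.0973, adjusted p = 0.030, edgeR), but the direction flipped to -0.26 (adjusted p = 0.021) once base composition was modelled, and the call was lost without control b (0.36) or SNP a (0.20). NUF2, of the microtubule-binding NDC80 complex, was at 48.3 and 46.7 CPM in control and 75.7 and 54.5 CPM after SNP. SNP a was the high library (log2 fold change 0.45, SE 0.144, adjusted p = 0.024, edgeR), and the call was lost without SNP a (0.35), control a (0.074) or control b (0.10) and with base composition modelled (0.16, adjusted p = 0.36). Its partners NDC80 (log2 fold change -0.13, adjusted p = 0.55) and SPC25 (0.01, adjusted p = 0.98) did not pass, SPC25 turning to -0.27 (adjusted p = 0.12) with base composition modelled. The kinetochore motor CENPE was at 0.02 (adjusted p = 0.93) and turned to -0.47, called lower (adjusted p = 0.0096), in that fit. HJURP, the chaperone that loads the centromeric histone CENPA, fell (log2 fold change -0.42, adjusted p = 0.029, edgeR), which did not hold without control a (0.33), control b (0.051) or SNP a (0.053). CENPA, which shares 138 exonic bases with SLC35F6, was at -0.50 (adjusted p = 0.093).

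Of 15 spindle and microtubule genes 6 fell and 1 rose. PSRC1, a microtubule-binding protein of the spindle, was at 17.1 and 12.4 CPM in control and 8.94 and 5.83 CPM after SNP. The groups did not overlap (log2 fold change -1.0, SE 0.257, adjusted p = 0.0063, edgeR), but the call was lost without control a (-0.75, adjusted p = 0.090). The kinesins differed in direction. KIF20A, needed for cytokinesis, fell by 0.73 on the log2 scale (adjusted p = 0.0038), and KIF2C, which depolymerizes microtubules, by 0.51 (adjusted p = 0.0067). Both calls were lost without control a (adjusted p = 0.077 and 0.21). KIF20B, a kinesin of late mitosis, was at 113 and 104 CPM in control and 163 and 150 CPM after SNP. Both SNP libraries lay above both controls (log2 fold change 0.53, SE 0.106, adjusted p = 8.9e-04, edgeR), and with base composition modelled the value was 0.15 (adjusted p = 0.19). KIF11, KIF23 and KIF4A, at -0.08, 0.05 and 0.05, had overlapping groups and did not pass; with base composition modelled KIF4A turned to -0.31, called lower (adjusted p = 0.046), and KIF23 to -0.17 (adjusted p = 0.26). NUSAP1 (log2 fold change -0.60), GTSE1 (-0.50) and ASPM (-0.33) also fell. ASPM was not called without control a (adjusted p = 0.34) or SNP b (0.091), nor GTSE1 without control a (0.11).

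Among the cytokinesis genes, anillin (ANLN), which organizes the contractile ring, fell by 0.49 (adjusted p = 0.0013) and RACGAP1, of the central spindle, by 0.42 on the log2 scale (adjusted p = 0.0069). Without control a the adjusted p was 0.055 for ANLN and 0.11 for RACGAP1. ECT2, which RACGAP1 recruits, had overlapping groups (log2 fold change -0.12, adjusted p = 0.52), and was called lower with base composition modelled (-0.34, adjusted p = 0.030).

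The proliferation marker MKI67, which coats mitotic chromosomes, was at 1241 and 1006 CPM in control and 817 and 805 CPM after SNP. Its controls were further apart than its SNP libraries, and the groups did not overlap (log2 fold change -0.47, SE 0.0951, adjusted p = 9.7e-04, edgeR). Topoisomerase TOP2A, which untangles sister chromatids, was at 396 and 371 CPM in control and 406 and 315 CPM after SNP. Its SNP libraries lay on either side of the controls (log2 fold change -0.09, SE 0.107, adjusted p = 0.58, edgeR), and without SNP b the value was 0.084. SMC4, a core subunit of condensin, was at 335 and 300 CPM in control and 435 and 364 CPM after SNP. Both SNP libraries were higher (log2 fold change 0.33, SE 0.102, adjusted p = 0.020, edgeR), but the direction flipped to -0.04 (adjusted p = 0.70) with base composition modelled, and the call was lost without control b (0.20) or SNP a (0.21). CDCA2, which brings phosphatase to chromosomes, fell by 0.61 on the log2 scale (adjusted p = 0.0031), and not without control a (0.17). The nuclear envelope genes TMPO (-0.07) and LBR (-0.05) did not pass, but were called lower with base composition modelled (-0.21 and -0.27, adjusted p = 0.036 and 0.043).

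On the length-corrected scale (deposited TPM, mean ± SD, n = 2), MKI67 had the highest control level of these genes, at 412 ± 55.3 TPM. It was followed by MYBL2 (335 ± 22.9 TPM), CENPF (287 ± 34.5 TPM), TOP2A (280 ± 9.47 TPM) and ASPM (277 ± 36.2 TPM), of which the last 3 lay within each other's spread. CDCA3, at 6.73 ± 1.08 TPM, was the lowest. In SNP libraries CENPF was at 381 ± 18.3 TPM and MKI67 at 324 ± 6.99 TPM. The use of strand in counting is not given in the sources used here, so reads in exonic bases shared with another gene could not be assigned; 20 of the 57 genes share some, among them FOXM1 (781 bases with ITFG2), SMC4 (1561 with TRIM59) and CDCA3 (549 with GNB3).

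Genes outside the 57 were read for p21, DREAM and other regulators. Whether their changes bear on those of the 57 genes was not tested. p21 (CDKN1A), the CDK inhibitor that acts on DREAM, rose from 21 and 19.4 CPM in control to 78.3 and 114 CPM after SNP (log2 fold change 2.25, SE 0.165, adjusted p = 1.1e-08, edgeR). MDM2, a ubiquitin ligase, rose from 260 and 252 CPM to 697 and 767 CPM (log2 fold change 1.51, adjusted p = 7.0e-10, edgeR). A list of 17 genes held p21, parts of DREAM and other regulators such as MDM2, CDKN1B and CDKN2C. Of these 17, 3 (17.6%) were called lower (TFDP2, LIN54 and CDKN2C) and 4 (23.5%) higher (CDKN1A, MDM2, DYRK1A and CDKN1B). Of the DREAM subunits in the list, TFDP2 and LIN54 were called lower and none higher. Over all genes the shares were 12.6% lower and 13.6% higher, and in the 14 tested G2 checkpoint genes 14.3% and 21.4%. The calls of CDKN1A and MDM2 held in every setting run, whereas LIN54, TFDP2 and CDKN2C were not called without control a (adjusted p = 0.33, 0.16 and 0.065), nor LIN54, TFDP2, DYRK1A and CDKN1B without control b (0.086, 0.071, 0.096 and 0.13) or LIN54, TFDP2 and CDKN1B without SNP a (0.088, 0.062 and 0.071). Of 14 tested G2 checkpoint genes, PKMYT1 and CCNH were lower and GADD45A (log2 fold change 2.61), BTG2 (1.07) and PLK3 higher. GADD45A had 20 and 24 counts in control a and b and 181 and 169 in SNP a and b. CCNH was not called without control a (log2 fold change -0.33), control b (-0.39) or SNP a (-0.33).

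Other mitotic genes had a lower median too. Over all genes 12.6% were called lower and 13.6% higher, or 8.71% and 10.0% with base composition modelled. The shares were 45.7% and 11.4% of the further mitotic genes and 15.6% and 3.13% of the further kinetochore genes. They were 5.88% and 5.88% in the anaphase-promoting complex with its partners, 17.4% and 26.1% in cohesin and condensin, and 20.6% and 8.82% in G1/S genes. Of 35 further mitotic and cytokinesis genes 16 were called lower, led by PRR11 (log2 fold change -1.21) and TROAP (-1.0), and 4 higher (INCENP, ARHGAP11A, CENPJ and HMGB2), with a median of -0.32; with base composition modelled ARHGAP11A flipped to -0.16, and CENPJ (0.11, adjusted p = 0.37) and HMGB2 (0.25, adjusted p = 0.087) were not called. Leaving out control b ended the calls of INCENP, ARHGAP11A and CENPJ (adjusted p = 0.21, 0.42 and 0.15). Of 32 further kinetochore and checkpoint genes, CENPI, CENPP, NSL1, PMF1 (-0.79) and KNL1 were lower and MAD1L1 (0.71) higher, with a median of -0.12. With base composition modelled 9 were lower and 0 higher, with a median of -0.24, and MAD1L1 (0.26, adjusted p = 0.059) and CENPP (-0.21, adjusted p = 0.18) were not called. None of the 5 lower calls held without control a (adjusted p = 0.059 to 0.33). CDC20 and UBE2C, partners of the anaphase-promoting complex, fell. Of 17 further genes of the complex and its partners, only UBE2S (-0.90) was called lower and only CDC23 (0.52) higher, with a median of -0.10. UBE2S, like UBE2C, is a conjugating enzyme and not a subunit. None of the listed subunits was called lower, but ANAPC11 was with base composition modelled (-0.73, adjusted p = 0.012, edgeR). CDC23 was not called without control a (log2 fold change 0.33) or SNP a (0.38). Nor was it with base composition modelled (0.36, adjusted p = 0.077, edgeR). The 23 cohesin and condensin genes had a median of 0.042, with 6 called higher, among them SMC3 (0.85), WAPL (0.71) and SMC2 (0.49), the condensin partner of SMC4, and 4 lower (NCAPD2, NCAPD3, ESPL1 and MAU2). With base composition modelled that median turned to -0.12, with 8 called lower and 2 higher; SMC3 was at 0.23, WAPL at 0.38, and SMC2 (0.092, adjusted p = 0.42) and MAU2 (-0.0044, adjusted p = 0.98) were not called. None of the 4 lower calls held without control a (adjusted p = 0.074 to 0.18). Of 34 G1/S genes 7 were lower, led by CDT1 (-1.11) and E2F2 (-0.71), and 3 higher (UHRF1, CHAF1A and POLA1), with a median of -0.17; POLA1 flipped to -0.02 with base composition modelled, and was not called without control a (adjusted p = 0.067), control b (0.41) or SNP a (0.13). SMC2, and the genes listed by name for counts of 5 or fewer, were named after their values were seen.

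**Figure D5:**
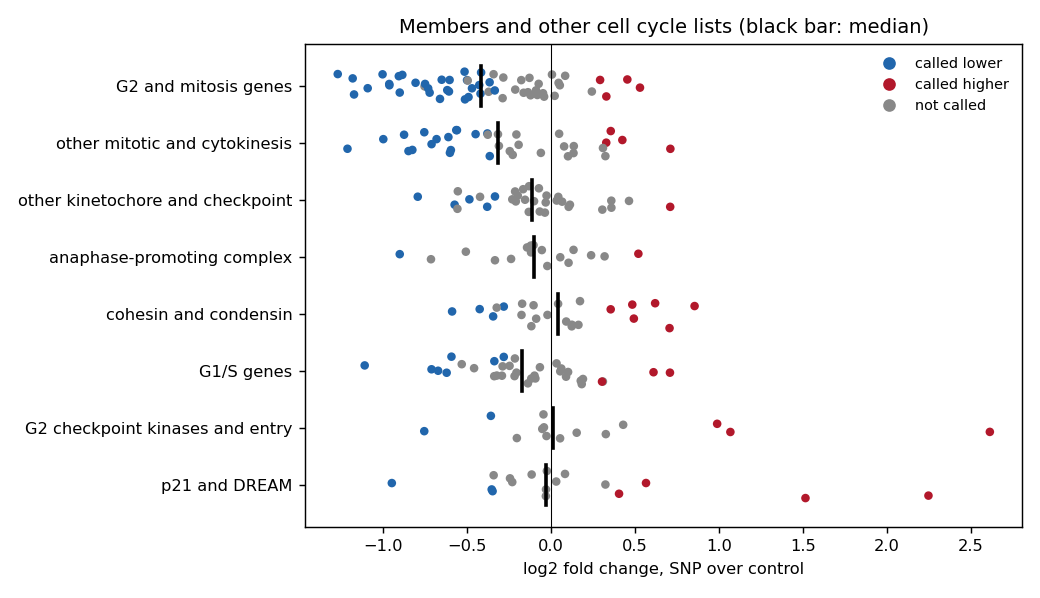
Log2 fold change, SNP over control, of each of the 57 genes and of each tested gene of 7 other cell cycle lists, coloured by call, with a black bar at each list's median. The medians run from -0.42 in the G2 and mitosis genes and -0.32 in the further mitotic genes to 0.042 in cohesin and condensin (-0.12 with base composition modelled), and CDKN1A and GADD45A are far to the right.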

How the data were processed

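RNA from SH-SY5Y cells was analysed in 2 untreated and 2 SNP-treated libraries, grouped by the labels. The authors deposited whole-number counts per gene, and TPM and RPKM values deposited beside them; the build was GRCh38 per the submitters' processing notes, and the aligner, counter and annotation are not given in the sources used here. The deposited counts sum to 11.5 to 13.3% of the read total that the RPKM values imply. Counts were tested in edgeR 4.0.16 (R 4.3.3) with glmQLFit and glmQLFTest, filterByExpr (minimum count 10, minimum total 15) and TMM scaling, without a replicate block, with p-values adjusted by Benjamini-Hochberg across the 14759 genes tested and a threshold of 0.05. CPM are TMM-scaled. Positions, lengths and base composition came from GENCODE 29, which held 57980 of 58243 genes. Base composition was modelled as lowess offsets (span 0.5) on length, GC and guanine minus cytosine content in each library. Alternatives included DESeq2 1.42.0, limma 3.58.1 (voom), other scalings and filters, and leaving out each library. The test was checked on simulated data with the same spread for every gene, so its error rate in these data was not measured. No batch is labelled, and a batch that coincides with the groups cannot be told apart from them. The genes and lists were chosen with earlier results of these data known. Genes described in full were CDK1, CCNB1, PLK1, TOP2A, MKI67, FOXM1, MYBL2, the 8 largest falls and the up to 5 largest rises among called genes. Of each other list, the 2 largest changes at a mean of at least 5 CPM were named, most by log2 fold change only. CDKN1A and MDM2 were also given in each library. Some genes of the lists are not reported here.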

Additional observations from a re-analysis of the deposited data

How the results depend on the processing

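The median log2 fold change of the 57 genes stayed between -0.48 and -0.32 under every alternative run. The number of all genes called, 3861, became 2415 with DESeq2, 2224 at an adjusted p under 0.01, 647 when a change of at least 1 on the log2 scale was also required, and 2447 to 4144 with 1 library left out. The 29 genes called lower became 5 with that requirement and 16 to 33 with 1 library left out. The 4 called higher became 0 with it, 1 at an adjusted p under 0.01, 1 with length and GC modelled, 1 with guanine minus cytosine added, 1 with that and the replicate block, 2 with read totals implied by RPKM, an alternative chosen after seeing the data, and 1 to 4 with 1 library left out. The cause was not tested. Over all 14759 genes, 247 were called lower and 400 higher with a change of at least 1 required, and 1068 and 1156 at an adjusted p under 0.01. With length and GC modelled these counts were 1994 and 2219, and with guanine minus cytosine added 1285 and 1479. They were 2173 and 2314 with the replicate block. With 1 library left out, the log2 fold change crossed 0 for CDK1 (-0.37 to 0.017), TOP2A (-0.28 to 0.084), TPX2 (-0.21 to 0.046), ECT2 (-0.36 to 0.088), HMMR (-0.52 to 0.17), KIF11 (-0.20 to 0.048), KIF23 (-0.096 to 0.19), KIF4A (-0.16 to 0.23), CKAP5 (-0.11 to 0.032), CENPE (-0.18 to 0.26) and SPC25 (-0.060 to 0.071), none of them called with all 4 libraries. With length and GC modelled, alone and with the replicate block, the direction turned for CENPE (-0.19 and -0.18), CKAP2 (-0.11 and -0.11), KIF23 (-0.064 and -0.062) and SPC25 (-0.036 and -0.035). With guanine minus cytosine added, alone and with the replicate block, it turned for CENPE (-0.47 and -0.46), CENPF (-0.26 and -0.25), KIF4A (-0.31 and -0.31), SPC25 (-0.27 and -0.27), KIF23 (-0.17 and -0.17), SMC4 (-0.044 and -0.043), CKAP2 (-0.0036 and -0.0029), ARHGAP11A (-0.16 and -0.15) and POLA1 (-0.023 and -0.021). It also turned with the RPKM totals for CKAP5 (0.026) and LBR (0.022), and without the 20 most abundant genes for SPC25 (-0.010). With the letters a and b as a replicate block, 31 genes were called lower and 4 higher. Same-lettered deviations correlated at 0.043 over 12582 genes, and the letters were not taken as pairs. Within the 57 genes b lay mostly below a in both groups, with a median log2 ratio of -0.15 in control and -0.16 in SNP. Another read column was not run, because only 1 count column was used here. Groups of 2 libraries limit the precision, as do low counts, such as the 29 to 59 of CDCA3.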
